A study of Danio rerio with 6 samples.

Results

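The genes described here encode extracellular matrix proteins of the zebrafish fin fold and of the Fraser complex. They were taken as the rows of the count table whose symbol is exactly fras1, frem1a, frem2a, hmcn1, hmcn2, fbn2b, and1 or and2. All 8 were among the 29361 gene symbols listed, and all 8 passed the low-count filter that left 19381 genes for testing. RNA was sequenced from sorted cells of embryos at 48 hours after fertilisation. The groups were 3 libraries from fish labelled as carrying the uq4bh mutation of mafba and 3 libraries from fish labelled wildtype, and every sample carried a kdrl eGFP transgene. The kdrl promoter drives the reporter in endothelial cells, and the samples are labelled purified endothelial cells, although the extraction text also names brains and pdgfr beta egfp as the sorted signal. The labels do not state whether each library stems from its own batch of embryos, and the p-values cover the variation among the 6 libraries, part of which may be technical.

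Fras1, Frem1 and Frem2 are large extracellular proteins made by the epidermis and, for Frem1 in mice, by the mesenchyme under it. They assemble into a complex below the epidermal basement membrane and anchor the epidermis to the dermis. Loss of the human genes FRAS1, FREM1 or FREM2 causes Fraser syndrome or related disorders, and zebrafish mutants of fras1, frem1a, frem2a or hmcn1 develop blisters in the embryonic fin folds. Hemicentins and fibrillins are extracellular fibre proteins of the same matrix, and actinodins build the actinotrichia, the stiff fibrils that hold the fin fold open. None of these genes is a usual marker of endothelium, the cell type that the labels give.

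The libraries held 44888870 to 52923490 reads on genes in the mutants and 43859736 to 49145191 in the wild types. In the mutant libraries mafba RNA stood at 31.0 to 39.6 CPM (counts divided by the library size, scaled by the trimmed mean of M values), against 32.9 to 45.8 CPM in the wild-type libraries. The ranges overlapped, and this RNA level is no check on the labelled genotypes. Endothelial RNA was present, with kdrl at 34.3 to 44.4 CPM in mutant and 35.2 to 54.8 CPM in wild-type libraries. Epidermal RNA was present as well. The 19 matched markers of basal epidermis, which include tp63, krt5 and epcam, had reads in all 6 libraries and summed to 5570 to 8250 CPM in mutant and 4980 to 7040 CPM in wild-type libraries. The 24 endothelial markers, of which stab2 was the most abundant, summed to 1000 to 1490 CPM in mutant and 1150 to 1730 CPM in wild-type libraries. The 12 matched markers of notochord and sheath summed to 1020 to 1180 CPM in mutant and 758 to 1670 CPM in wild-type libraries. Of these, 10 had reads in all 6 libraries. The most abundant was the collagen gene col2a1a, which is also on the list of fin rays and actinotrichia used below. The pericyte gene pdgfrb stood at 0.319 to 1.16 CPM in mutant libraries and at 0.000 to 0.664 CPM in wild-type libraries. Mutant 3 and wild-type 3 had the most genes with reads, 21098 and 20305, against 19230 to 19490 in the other libraries. They also had the highest scaling factors, 1.112 and 1.057, against 0.9387 to 0.9788 in the others, and the part of this in the results was not tested.

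The study set mutant against wild-type endothelium to ask which genes depend on mafba. Among the 8 matrix genes, 7 were fitted higher in the mutant and 1 lower, with a median log2 difference of 0.43, where 49.3% of all tested genes were fitted higher and the median of all tested genes was within 0.01 of 0. The 7 include hmcn1, whose log2 difference was only 0.01. With RLE factors and in DESeq2 6 of the 8 were fitted higher. None of the 8 passed the edgeR quasi-likelihood test adjusted over all genes (adjusted p = 1.00 for each), and neither did any of the 19381 genes (0%). At an unadjusted p under 0.05, edgeR held 2 of the 8, where 1.57% of all genes did. That count was 0 of 8 without mutant 1, mutant 2, wild-type 1 or wild-type 3, and 4 of 8 without mutant 3 or wild-type 2. The count over all genes moved as well. It was 929 of 20087 genes without mutant 3 and 412 of 20353 without wild-type 2, against 305 of 19381 with all libraries. In the fits that gave 0 of 8 it ran from 232 of 20355 (without mutant 2) to 483 of 20358 (without wild-type 1). The median of 0.43 was 0.23 without mutant 1 and 0.66 without mutant 3. DESeq2 held 3 of the 8 and limma-voom 4, where 1.85% and 2.38% of all genes did, and both gave 0 genes after adjustment, of 19346 with an adjusted p in DESeq2 and 19381 in limma-voom. In 0 of the 8 did the mutant CPM values lie clear of the wild-type values, where 6.74% of all tested genes were clear in either direction. The genes share libraries, and 5 of them varied together from library to library, so their common direction is not 8 separate observations.

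**Figure D1:**
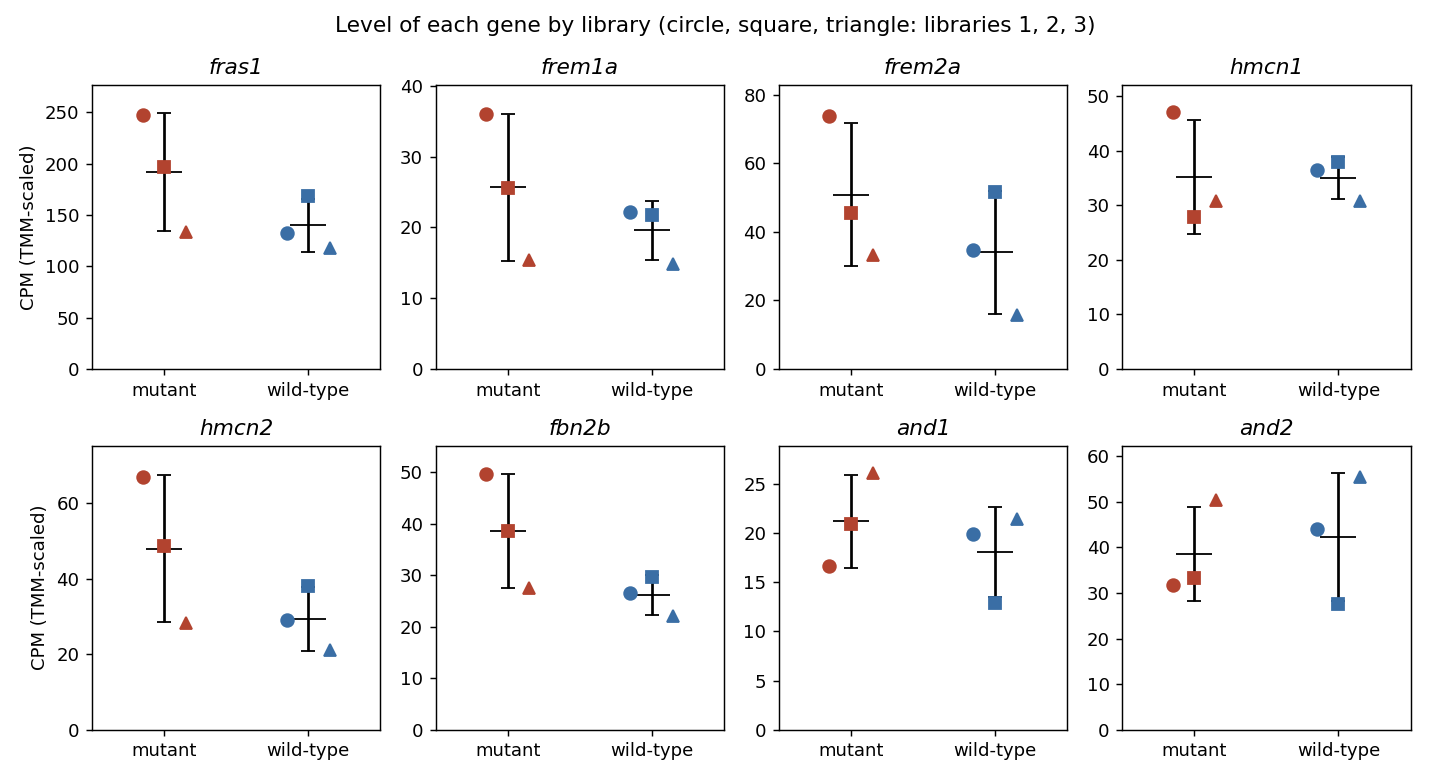
Level of each matrix gene in CPM (vertical axes, starting at 0) in the 3 mutant and 3 wild-type libraries. Circles, squares and triangles are libraries 1, 2 and 3 of a genotype, and horizontal and vertical bars give the mean and SD. The genotypes overlap in all 8 panels, and mutant 1 is the highest library for 6 of the 8 genes.

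Of the Fraser complex genes, fras1 encodes the founding subunit. It stood at 247, 197 and 133 CPM in mutant 1, 2 and 3, against 132, 168 and 118 CPM in wild-type 1, 2 and 3. Mutant 1 and mutant 2 lay above every wild-type library, while mutant 3 lay level with wild-type 1 and below wild-type 2. The means were 192 ± 57.3 CPM in mutant and 140 ± 25.8 CPM in wild-type libraries (SD, n = 3 each). The fitted fold was 1.38, with a 95% interval of 0.997 to 1.90 (edgeR, unadjusted p = 0.0519). In a bulk library more cells of a type and more RNA per cell cannot be told apart, and this holds for every gene described here.

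The gene frem2a encodes a second subunit, which in mice depends on the other subunits for its deposition. It had 73.8, 45.5 and 33.2 CPM in mutant 1, 2 and 3, and 34.8, 51.5 and 15.6 CPM in wild-type 1, 2 and 3. It was the most variable of the 8 genes, with 4.73-fold between its highest and lowest library, against 1.69-fold to 3.18-fold for the other 7. The ranges overlapped, with mutant 1 above and wild-type 3 below all other libraries. The fitted fold was 1.50 (95% interval 0.820 to 2.73).

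The remaining subunit gene, frem1a, stood at 36.1, 25.6 and 15.4 CPM in mutant 1, 2 and 3, against 22.2, 21.8 and 14.8 CPM in wild-type 1, 2 and 3. Mutant 1 and mutant 2 lay above the wild-type libraries, and mutant 3 lay beside wild-type 3 at the bottom. The fitted fold was 1.31 (95% interval 0.835 to 2.07). Without mutant 1 the log2 difference of frem1a was 0.07, against 0.39 with all libraries.

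The hemicentin genes had unlike fitted folds, although both were highest in mutant 1 and their 95% intervals overlapped. For hmcn2 the values were 67.0, 48.6 and 28.3 CPM in mutant 1, 2 and 3, against 29.2, 38.0 and 21.1 CPM in wild-type 1, 2 and 3. Again mutant 1 and mutant 2 lay above all wild-type libraries and mutant 3 lay among them. The fitted fold of 1.63 was the highest of the 8 genes, with a 95% interval of 1.04 to 2.55 and an unadjusted p of 0.0349 in edgeR (adjusted p = 1.00). By contrast hmcn1, whose loss blisters the zebrafish fin fold, stood at 47.1, 27.9 and 30.7 CPM in mutant 1, 2 and 3 and at 36.5, 37.9 and 30.7 CPM in wild-type 1, 2 and 3. Its means were 35.2 ± 10.4 CPM in mutant and 35.0 ± 3.81 CPM in wild-type libraries (SD, n = 3 each). The fitted fold of hmcn1 was 1.01 (95% interval 0.719 to 1.41), and its sign turned under RLE and upper-quartile factors.

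The fibrillin gene fbn2b, which zebrafish need for the fin fold and the notochord, had 49.7, 38.5 and 27.6 CPM in mutant 1, 2 and 3. Its wild-type values were 26.6, 29.7 and 22.0 CPM. Only mutant 3 fell within the wild-type range. The fitted fold was 1.48 (95% interval 1.04 to 2.11, edgeR, unadjusted p = 0.0324, adjusted p = 1.00).

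The actinodin genes ran differently from the others. For and1 the values were 16.7, 20.9 and 26.1 CPM in mutant 1, 2 and 3, against 19.9, 12.9 and 21.4 CPM in wild-type 1, 2 and 3. The highest library was mutant 3 and the lowest wild-type 2, and the genotypes overlapped. For and2 they were 31.8, 33.4 and 50.5 CPM in mutant and 44.0, 27.6 and 55.5 CPM in wild-type libraries. Mutant 3 and wild-type 3 were the highest libraries for and2, and both were among the 3 lowest for fras1. The fitted folds were 1.18 for and1 (95% interval 0.790 to 1.75) and 0.912 for and2 (95% interval 0.614 to 1.36).

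**Figure D2:**
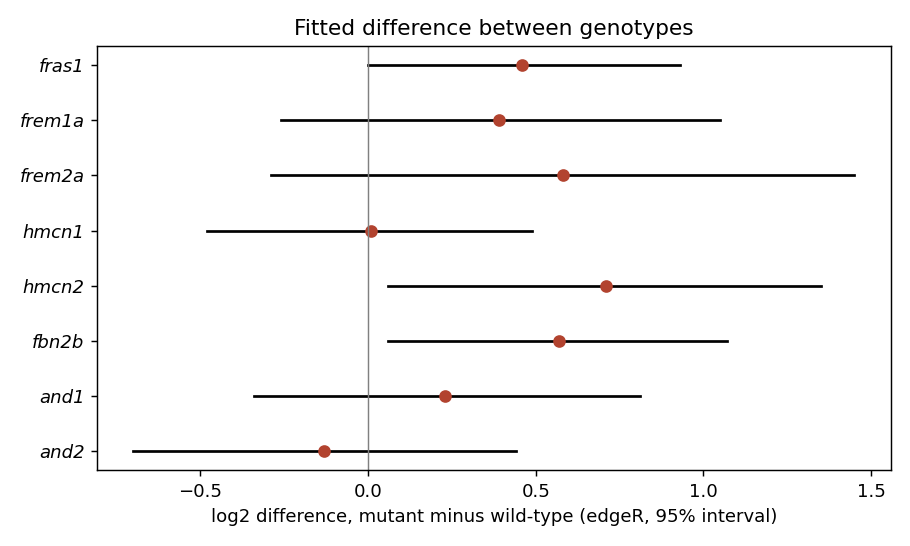
Fitted log2 difference (horizontal axis, mutant minus wild-type) of each matrix gene with its 95% interval from the edgeR quasi-likelihood fit. The intervals of hmcn2 and fbn2b lie above 0, that of fras1 reaches 0, and those of the other 5 cross it.

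Genes of the Fraser complex, hmcn2 and fbn2b tended to be high and low in the same libraries, and 6 of the 10 pairs among them passed a test of correlation. This grouping was made after the values were seen, so the tested share is 6 of all 28 pairs. Pearson's r of log2(CPM + 0.5) over the 6 libraries was computed for all 28 pairs, with an exact two-sided permutation of the 720 pairings and Benjamini-Hochberg adjustment over the 28. Adjusted p-values were under 0.05 for 6 pairs (21.4%), all with positive r of at least 0.923 and all among fras1, frem1a, frem2a, hmcn2 and fbn2b. As a background, 1.45% of the 23327865 pairs among the 6831 genes whose mean log2 CPM was 4 or more had an absolute r this large. With Spearman's rho 0 of the 28 pairs passed, where even a rho of 1.00 gave an exact permutation p no lower than 0.00278. With 5 libraries in place of 6, 11 pairs passed without wild-type 2, and 0 passed without any of the other 5 libraries. Negative relations of and2 are among the 11. Exact permutation of 5 libraries gave no p below 0.00833, against 0.00139 with 6, so passing is harder at the same r. Among the 10 pairs r was at least 0.77 in each of these settings.

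For hmcn2 with fbn2b, r was 0.99 (exact permutation p = 0.00278, adjusted p = 0.0259) and rho 0.94 (exact permutation p = 0.0167, adjusted p = 0.0778). This pair had r = 0.95 without mutant 1 and wild-type 3, the libraries farthest from the median of hmcn2. The highest r of the 28 pairs was that of the Fraser subunit fras1 with hmcn2, at 0.992 (exact permutation p = 0.00278, adjusted p = 0.0259) and rho = 0.94 (exact permutation p = 0.0167, adjusted p = 0.0778). Without mutant 1 and mutant 2, the farthest libraries of fras1, r was 0.96. With fbn2b, fras1 gave r = 0.98 (exact permutation p = 0.00139, adjusted p = 0.0259) and rho = 1.00 (exact permutation p = 0.00278, adjusted p = 0.0778), and r = 0.86 without the same 2 libraries. These 3 genes thus ranked the 6 libraries in nearly the same order, with mutant 1 highest, mutant 2 next and wild-type 3 lowest.

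The other 3 pairs that passed involve the Frem subunits. For frem1a with hmcn2, r was 0.94 (exact permutation p = 0.00694, adjusted p = 0.0454) and rho 0.94 (exact permutation p = 0.0167, adjusted p = 0.0778). For frem1a with fras1, r was 0.92 (exact permutation p = 0.00833, adjusted p = 0.0454) and rho 0.83 (exact permutation p = 0.0583, adjusted p = 0.117). For frem2a with hmcn2, r was 0.92 (exact permutation p = 0.00972, adjusted p = 0.0454) and rho 0.94 (exact permutation p = 0.0167, adjusted p = 0.0778). Leaving out the 2 farthest libraries gave r of 0.75, 0.68 and 0.80 for these 3 pairs, so they rest in part on mutant 1 together with wild-type 3 for the pairs in which hmcn2 takes part, and with mutant 2 for the pair with fras1. With no scaling beyond library totals these 3 pairs no longer passed, while the 3 pairs among fras1, hmcn2 and fbn2b did.

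**Figure D3:**
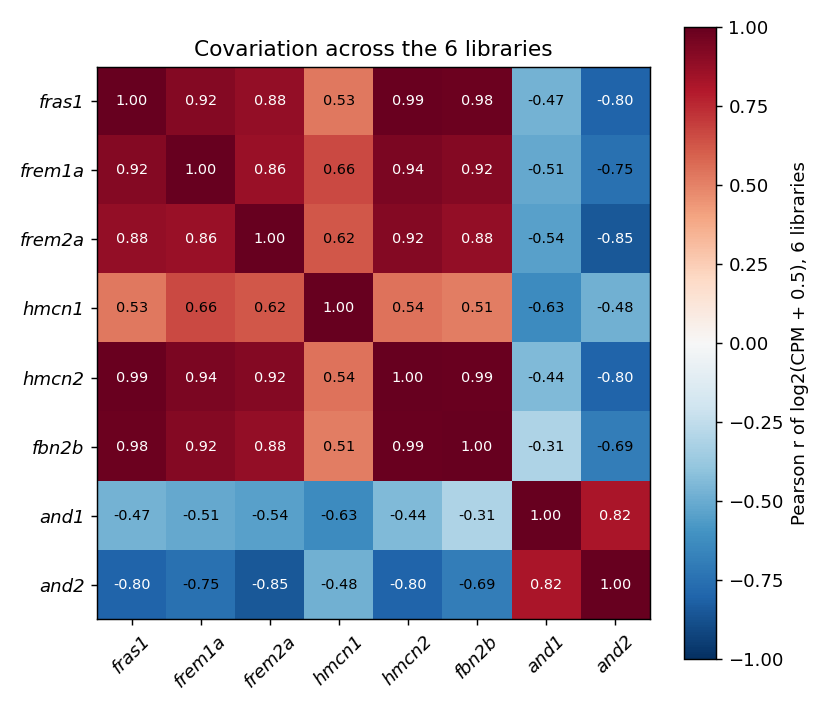
Pearson's r of log2(CPM + 0.5) between each pair of the 8 matrix genes over the 6 libraries, with the colour scale from -1 to 1. The genes fras1, frem1a, frem2a, hmcn2 and fbn2b form a block of r from 0.86 to 0.99, and the actinodin genes and1 and and2 show negative r with them.

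The subunits of the Fraser complex correlated among themselves at 0.92 for fras1 with frem1a, 0.88 for fras1 with frem2a (exact permutation p = 0.0194, adjusted p = 0.0605) and 0.86 for frem1a with frem2a (exact permutation p = 0.0361, adjusted p = 0.0843). The corresponding rho values were 0.83, 0.89 and 0.83. Grouping frem1a, frem2a, fras1, hmcn2 and fbn2b after their values were seen, all 10 pairs among them had r between 0.86 and 0.99. Deviations from the genotype means gave r from 0.84 to 0.99 for these 10 pairs. Permuting within genotypes allows 36 arrangements and no p below 0.0278, and 0 of the 28 pairs passed after adjustment on that scale (adjusted p from 0.0864 to 0.141 for these 10).

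Against hmcn1, these 5 genes gave r of 0.51 to 0.66 (exact permutation p from 0.144 to 0.303, adjusted p from 0.238 to 0.353; rho from 0.26 to 0.60, adjusted p from 0.338 to 0.658). The gene hmcn1 was at its lowest in mutant 2, where fras1, hmcn2 and fbn2b had their second highest values. Without mutant 2, r of fras1 and hmcn1 was 0.94, and without mutant 1 it was -0.17. How far hmcn1 followed fras1 thus depended on single libraries.

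The actinodin genes followed each other at r = 0.82 (exact permutation p = 0.0361, adjusted p = 0.0843; rho = 0.89, exact permutation p = 0.0333, adjusted p = 0.104), and r was 0.64 without mutant 3 and wild-type 2. Each had negative r with the other 6 genes. For and2 the values against fras1, frem1a, frem2a, hmcn2 and fbn2b lay between -0.85 and -0.69 (exact permutation p from 0.0153 to 0.133, adjusted p from 0.0583 to 0.233; rho from -0.94 to -0.66, adjusted p from 0.0778 to 0.258). For and1 they lay between -0.54 and -0.31 (exact permutation p from 0.253 to 0.564, adjusted p from 0.353 to 0.564; rho from -0.83 to -0.49, adjusted p from 0.117 to 0.415). Deviations from the genotype means gave r from -0.92 to -0.77 for and1 with those genes and from -0.9 to -0.76 for and2. They gave 0.95 for and1 with and2. On that scale too no pair passed after adjustment. Over all 6 libraries none of these negative relations passed. Without wild-type 2, and2 passed with fras1 (r = -0.96), frem2a (-0.9), hmcn2 (-0.97) and fbn2b (-0.95). Each of these had an adjusted p of 0.0424 by exact permutation.

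**Figure D4:**
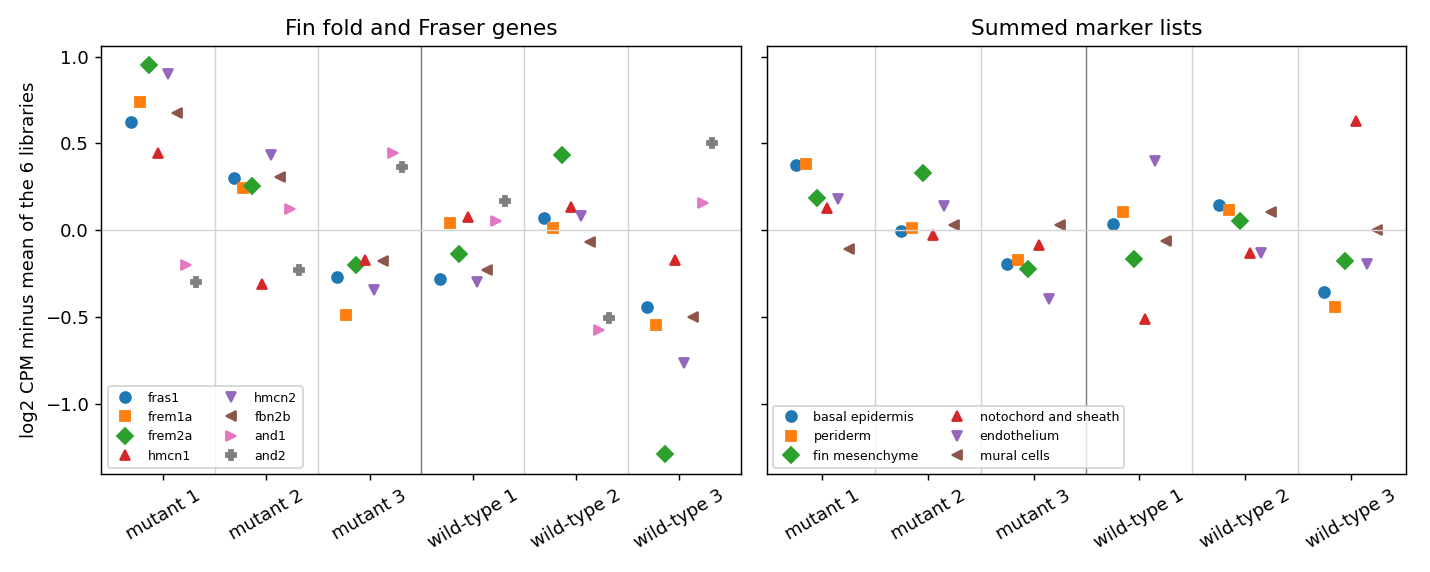
Log2 CPM of each matrix gene (left) and log2 summed CPM of each marker list (right) minus its own mean over the 6 libraries, by library, with mutant libraries left of the dark vertical line. In mutant 1 the genes fras1, frem1a, frem2a, hmcn2 and fbn2b stand highest and the basal epidermis and periderm lists are also at their highest, while in wild-type 3 both sets are lowest.

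Sums of skin markers are given beside these genes. The basal epidermis list summed to 8250, 6340 and 5570 CPM in mutant 1, 2 and 3, against 6520, 7040 and 4980 CPM in wild-type 1, 2 and 3. The periderm list, whose most abundant gene is the keratin gene krt4, had reads for 15 of 15 markers and summed to 6240, 4820 and 4240 CPM in mutant libraries, against 5140, 5190 and 3520 CPM in wild-type libraries. The sum of the basal epidermis list was led by epcam, at 2230 to 3530 CPM in mutant and 1940 to 2880 CPM in wild-type libraries, and its 19 tested members were divided, with 10 fitted higher, 9 lower and a median log2 difference of 0.02. The basal keratin gene krtt1c19e, listed as si:dkeyp-113d7.4, had 106, 109 and 109 CPM in mutant libraries, against 159, 133 and 150 CPM in wild-type libraries, and did not pass (edgeR, unadjusted p = 0.00698, adjusted p = 1.00). The only other member of that list with an unadjusted p under 0.05, fermt1, was fitted higher. It had 107, 80.8 and 51.3 CPM in mutant libraries, against 58.4, 42.9 and 38.7 CPM in wild-type libraries (edgeR, unadjusted p = 0.00924), and did not pass either. In the periderm list 7 of 15 were fitted higher and 8 lower (median -0.06). Both sums were highest in mutant 1 and lowest in wild-type 3, as were fras1, frem1a, frem2a, hmcn2 and fbn2b, and both overlapped between genotypes. The part of epidermal RNA in the differences above was not tested.

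Over the 6 libraries fras1 correlated with the summed basal epidermis list at r = 0.85 (exact permutation p = 0.0361, adjusted p = 0.127 over 12 relations) and rho = 0.71 (exact permutation p = 0.136, adjusted p = 0.272). The value fell to 0.43 when the 2 libraries farthest from the median of the list were left out, so it rests on those libraries. The gene and2 gave r = -0.83 with the same list (exact permutation p = 0.0375, adjusted p = 0.127) and rho = -0.89 (exact permutation p = 0.0333, adjusted p = 0.200), with -0.84 when those 2 libraries were left out. With the endothelial list, r was 0.39 for fras1 and -0.34 for and2 (exact permutation p = 0.418 and 0.518, adjusted p = 0.713 for each; rho = 0.31 and -0.43, adjusted p = 0.752 and 0.719). Without the 2 libraries farthest from the median of the endothelial list these became 0.91 and -0.47. The same step gave 0.29 for fras1 with the periderm list and 0.82 with the notochord list, against 0.81 and -0.07 over all 6 libraries, so no order among the lists can be read from these values. None of the 12 relations passed.

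Fin mesenchyme was represented unevenly. Of its 20 markers, 16 had reads in all 6 libraries. The T-box gene tbx5a, which the pectoral fin bud needs, had 0 reads in every library. The list summed to 628, 692 and 473 CPM in mutant libraries, against 491, 572 and 488 CPM in wild-type libraries. Its most abundant gene was the collagen gene col1a2, at 252 to 388 CPM in mutant and 240 to 306 CPM in wild-type libraries. Next in the mutant libraries came tnc, the gene for tenascin C, at 58.5 to 138 CPM, against 45.1 to 58.9 CPM in wild-type libraries. In the wild-type libraries the mean of tgfbi, 54.9 CPM, lay above that of tnc, 50.8 CPM. The 18 tested members were divided, with 8 fitted higher, 10 lower and a median log2 difference of -0.19, so the sum does not stand for each marker. The mesenchymal receptor gene pdgfra stood at 0.850, 2.52 and 2.18 CPM in mutant libraries, against 4.50, 3.89 and 4.31 CPM in wild-type libraries, and it did not pass (edgeR, unadjusted p = 0.0430, adjusted p = 1.00). The relation of fras1 with the summed list was r = 0.88 (exact permutation p = 0.0278, adjusted p = 0.127), with rho = 0.77 (exact permutation p = 0.103, adjusted p = 0.272) and r = 0.89 without the 2 farthest libraries. The collagen and matrix genes that lead the sum are made by several cell types.

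Ratios between matrix genes within a library do not depend on how libraries are scaled. Of 28 such ratios of reads, 3 did not overlap between the genotypes (10.7%), where 5.24% of the ratios among the 6831 genes whose mean log2 CPM was 4 or more did not overlap. The ratio of and1 to and2 was 0.524, 0.624 and 0.517 in mutant libraries, against 0.452, 0.468 and 0.386 in wild-type libraries. All mutant libraries thus held more and1 reads per and2 read, although neither gene alone was clear of the other genotype. The exact two-sided permutation p for this ratio was 0.1, the smallest that 3 against 3 libraries can give, before any adjustment for 28 ratios. With no difference between genotypes a ratio would lie apart with a frequency of 0.1, and the 10.7% seen is near that.

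The ratio of hmcn1 to fbn2b was 0.948, 0.725 and 1.11 in mutant libraries, against 1.37, 1.28 and 1.40 in wild-type libraries. The ratio of frem1a to hmcn2 was 0.539, 0.528 and 0.543 in mutant libraries, against 0.762, 0.572 and 0.702 in wild-type libraries. The frem1a ratio was thus nearly constant across the mutants. Both had the same smallest exact permutation p of 0.1. The steadiest ratio of all was fras1 to fbn2b, which ran from 4.80 to 5.13 in mutant and from 4.97 to 5.66 in wild-type libraries, and the least steady was frem2a to and2, with 8.24-fold between its extremes.

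**Figure D5:**
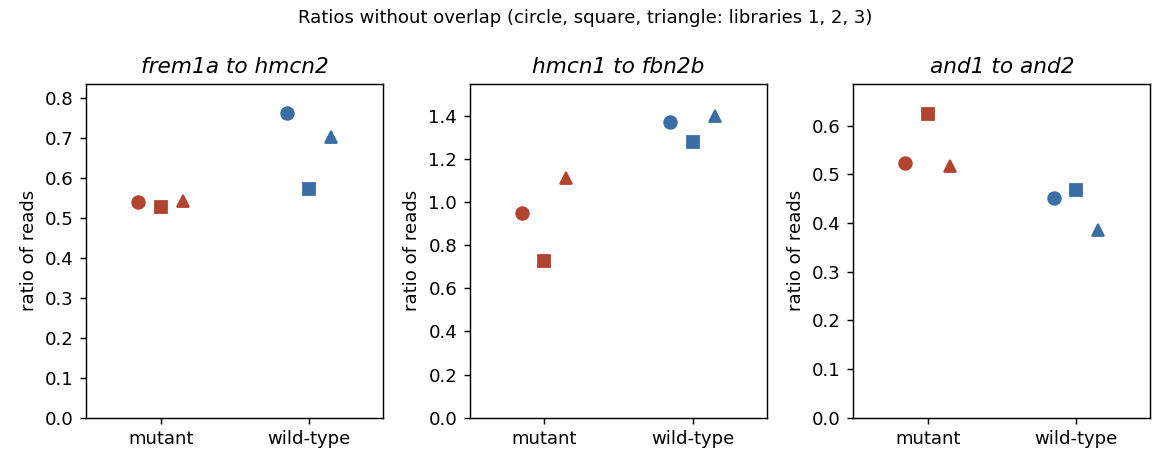
Ratios of reads of 2 matrix genes in each library (vertical axes, starting at 0), for the 3 ratios of 28 whose mutant and wild-type values do not overlap. Circles, squares and triangles are libraries 1, 2 and 3 of a genotype.

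Partners of the Fraser complex were detected alongside it. Of 18 genes on that list 16 were tested, 11 fitted higher and 5 lower in the mutant with a median log2 difference of 0.23, and 0 passed (edgeR). The smallest p belonged to fermt1, which encodes kindlin-1, an activator of integrins in basal keratinocytes. It had 107, 80.8 and 51.3 CPM in mutant libraries, against 58.4, 42.9 and 38.7 CPM in wild-type libraries, a log2 difference of 0.77 ± 0.25 (SE; edgeR, unadjusted p = 0.00924, adjusted p = 1.00). Only mutant 3 lay within the wild-type range. The paralogue frem1b had 39.3, 54.0 and 26.1 CPM in mutant libraries, against 36.3, 31.5 and 23.9 CPM in wild-type libraries (log2 difference 0.38 ± 0.26, SE). Its highest library was mutant 2, not mutant 1.

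The remaining Frem paralogues, frem2b and frem3, differed by 0.23 ± 0.27 and 0.26 ± 0.41 on the log2 scale (SE), and frem2b stood at 51.2 to 108 CPM in mutant and 51.3 to 92.9 CPM in wild-type libraries. The epidermal laminin gene lama5, which is also needed for an intact zebrafish fin fold, had 449, 336 and 234 CPM in mutant libraries, against 311, 339 and 207 CPM in wild-type libraries. Its highest and lowest libraries were mutant 1 and wild-type 3, as for fras1, but other genes of the list differed in this. The integrin gene itgb4 was highest in wild-type 2 (178 CPM) and lowest in mutant 2 (104 CPM). The same libraries were the extremes of itgb1b, at 60.7 and 25.2 CPM. The adaptor gene grip1, whose human counterpart is another Fraser syndrome gene, differed by 0.08 ± 0.28, and the integrin gene itga8, whose product binds nephronectin, by 0.34 ± 0.36. The nephronectin gene npnt differed by 0.26 ± 0.24. The partners fitted lower were all integrin genes, each by less than its SE. They were itgb1a at -0.14 ± 0.31, itgb1b at -0.11 ± 0.28, itgb4 at -0.05 ± 0.2, itga6a at -0.03 ± 0.22 and itga3a at -0.02 ± 0.24. Other integrin genes of the list were fitted higher, namely itga8, itga3b at 0.24 ± 0.24 and itga6b at 0.17 ± 0.17.

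The actinodin gene and3 stood at 22.8, 23.7 and 24.1 CPM in mutant libraries, against 22.9, 13.1 and 21.5 CPM in wild-type libraries. Like and1 and and2 it was lowest in wild-type 2, but its mutant libraries were nearly equal. The last of the family, and4, had 0 reads in mutant 1 and wild-type 2 and at most 1.16 CPM elsewhere. Of the other fibrillin genes, fbn1 stood at 1.27 to 5.27 CPM in mutant and 1.56 to 1.93 CPM in wild-type libraries, and fbn2a at 0.00 to 1.50 CPM in mutant and 0.00 to 0.559 CPM in wild-type libraries.

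Wider lists of fin fold and matrix genes were also divided, and 0 genes of any list passed (edgeR, adjusted over all genes). In the list of fin rays and actinotrichia the median log2 difference was 0.15, with 12 of 20 tested genes fitted higher and 8 lower. Its smallest p was that of tnc, the gene for the matrix glycoprotein tenascin C, which had 113, 138 and 58.5 CPM in mutant libraries, against 48.3, 58.9 and 45.1 CPM in wild-type libraries. Only mutant 3 lay within the wild-type range, just below wild-type 2. The log2 difference of tnc was 1.03 ± 0.26 (SE; edgeR, unadjusted p = 0.00194, adjusted p = 1.00; DESeq2, adjusted p = 0.289). The collagen gene col1a1b differed by 0.27 ± 0.17.

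In the basement membrane list 16 of 24 were higher and 8 lower (median 0.10). Its leading genes by p were col18a1, at 0.51 ± 0.19 (SE, log2), and the laminin gene lama1, at 0.64 ± 0.30. In the list of fin bud and fin fold signalling 16 of 25 were higher and 9 lower (median 0.21). There the hedgehog ligand gene shha differed by 0.51 ± 0.27 and the homeobox gene dlx2a by -0.76 ± 0.51. Among fibrillins and microfibril genes the median was 0.05, with 14 of 24 higher and 10 lower, the fibronectin gene fn1b at -0.53 ± 0.31 and emilin1a, which had at most 2.84 CPM in any library, at -2.82 ± 2.07. Among all 19381 genes, 9547 were fitted higher and 9834 lower.

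The genes most like each matrix gene over the 6 libraries were sought among the 11967 tested genes whose mean log2 CPM was 2 or more, by Pearson's r of log2(CPM + 0.5). With only 6 points many genes reach a high r by this measure, and 0.535% of the genes compared had r of at least 0.9 with hmcn1, 0.911% with and1 and 1.36% to 2.02% with each of the other 6. The semaphorin gene sema3c was in the first 2 places for 3 matrix genes, with r of 0.9960 for fras1, 0.9986 for hmcn2 and 0.9893 for fbn2b. It stood at 8.42, 6.84 and 4.69 CPM in mutant libraries, against 4.69, 5.68 and 3.91 CPM in wild-type libraries. A gene listed as ZPLXDC2 came first for fras1 at r = 0.9995, and prss35 first for fbn2b at 0.9926.

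For frem1a the most alike genes were plekhg4 (r = 0.9935) and HOOK3 (0.9932), and for frem2a they were fat2 (0.9986), an atypical cadherin gene, and NUAK1_(1_of_2) (0.9985). For hmcn1 they were tdp1 (0.9873) and lsr (0.9852). For and1 they were aftphb (0.9884) and si:ch211-288g17.3 (0.9877), and for and2 they were rab20 (0.9938) and spcs2 (0.9919). Of the matrix genes themselves, fras1 was the second most like hmcn2, hmcn2 ranked 4 for fras1 and 5 for fbn2b, and the best rank of another matrix gene was 95 for frem1a, 113 for frem2a and 786 for hmcn1. The actinodin genes ranked 398 and 536 for each other.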

How the data were processed

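The deposited values are raw counts of reads per gene symbol, and the submitters' processing notes name bcl2fastq, STAR, HTSeq, Zv9 and danRer7. Per the labels' protocols the RNA had been amplified. Versions, annotation and strand setting: not given in the sources used here. Without strand, reads of overlapping or antisense genes are not separable, and similar paralogues (hmcn1 and hmcn2, the Frem genes, the actinodins) carry an uncertain share of reads. The 5 summary rows for reads outside genes (22.1% to 28.1% of each file) were left out.

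Counts were fitted with edgeR 4.0.16 in R 4.3.3: filterByExpr on both genotypes, TMM factors, a robust quasi-likelihood fit of genotype, and Benjamini-Hochberg adjustment over 19381 genes with a threshold of 0.05. DESeq2 1.42.0 and limma 3.58.1 were alternatives. Differences in log2 are mutant minus wild-type. On simulated data drawn from these libraries (18188 genes, mutant against wild-type), edgeR recovered 35.8% of genes changed 2-fold, 79.1% changed 4-fold and 95.5% changed 8-fold, with 7 false calls. The changed genes were taken from those above a minimum mean CPM, and each gene was drawn independently. Variation shared by genes within a library was thus absent, and these rates need not hold for the real libraries.

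Of 235 list entries, 200 matched by symbol, 18 by a synonym in a RefSeq table of assembly GRCz12tu, 13 had no match and 4 repeated an entry. No coordinates are given, since the build of that table differs from that of the counts. The matrix genes and lists were chosen with earlier results of these data known. Named genes are the 8, the 2 with the smallest p in each gene list and the 2 most alike each of the 8. The genes lama5, pdgfra, krtt1c19e, epcam, col1a2, tbx5a, frem2b, frem3, grip1, itga8, npnt and the other actinodin and fibrillin genes were chosen after their values were seen. So were tgfbi, col2a1a, stab2 and the integrin genes itgb1a, itgb1b, itgb4, itga6a, itga6b, itga3a and itga3b. Alternatives were other scalings, filters, tools, thresholds, pseudocounts, a replicate block, left-out libraries and the per-library files. Plots used matplotlib 3.10.9 in Python 3.11.15.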

Additional observations from a re-analysis of the deposited data

How the results depend on the processing

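The number of genes past the threshold of 0.05 was 0 over all genes, among the 8 matrix genes and among the list genes under each scaling, filter, tool and left-out library (305 genes at an unadjusted p under 0.05 in edgeR, 358 in DESeq2, 461 in limma-voom). At a threshold of 0.10 it was also 0 in the main edgeR fit, where alone that threshold was applied. The lowest adjusted p over all genes was 0.0829 in DESeq2 and 0.0535 in edgeR with the replicate block, both under 0.10. Of 494 alternative values for 31 named genes, 475 kept their sign and 0 passed. The log2 difference of hmcn1, 0.01, was -0.0243 with the replicate block, -0.000117 in DESeq2, -0.001815 with the strict filter, -0.004419 under upper-quartile and -0.000111 under RLE factors, and tdp1 came to 0.01708 in limma-voom. When 1 library at a time was left out, hmcn1 ranged from -0.2578 to 0.1515, and2 from -0.3759 to 0.112, tdp1 from -0.2542 to 0.07745, lsr from -0.132 to 0.1799, rab20 from -0.3057 to 0.07342 and spcs2 from -0.1938 to 0.05981. The matrix genes fitted higher were 6 or 7 of 8 throughout, and fras1 ranged from 0.24 (without mutant 1) to 0.67 (without mutant 3), hmcn2 from 0.39 to 0.97, frem2a from 0.21 to 1.01, frem1a from 0.07 to 0.66 and fbn2b from 0.34 to 0.76.

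The number of correlated pairs, 6 of 28, was 12 at a threshold of 0.10, 10 on linear CPM, 3 with library totals, 0 with Spearman's rho and 0 for deviations from genotype means; it ranged from 0 to 11 with 1 library left out. The number of ratios without overlap, 3, ranged from 4 to 10, where fewer libraries make overlap less likely by construction. Both left-out ranges were computed after the data were seen. For the other changes the cause was not tested.

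Same-numbered libraries deviated together at 0.109, 0.0320 and 0.232 across all tested genes, and no label says what a shared number would mean. With the replicate block 0 genes were called and 523 had an unadjusted p under 0.05, including 4 of the 8 matrix genes, a count that was 2 without the block and ran from 0 (in 4 of the 6 fits with a library left out) to 4.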
